A study of Mus musculus with 8 samples.

Results

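The 7 CXC chemokine genes Cxcl1, Cxcl2, Cxcl3, Cxcl5, Pf4, Ppbp and Cxcl16 were followed in tumor-associated macrophages (TAMs) of mice treated with thiostrepton. They were chosen by name, as the chemokines that attract neutrophils, the platelet chemokines beside them in the genome and the scavenger chemokine Cxcl16, and they are 7 of the 23413 gene symbols counted. In TAMs, Cxcl1 and Cxcl2 were high in both mice treated by paratumor subcutaneous injection (S.C.) and in 1 of the 4 mice treated by intraperitoneal injection (I.P.), and were near the vehicle level in the other 3 I.P. mice. Ppbp behaved differently, and was low in all 4 I.P. mice, that 1 mouse included. Neither the platelet chemokine Pf4 nor Cxcl3, Cxcl5 and Cxcl16 passed the test in any of the 3 comparisons with all mice in the fit.

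Chemokines are small secreted proteins that direct the movement of leukocytes, and the CXC family is named for the spacing of its first cysteines. CXCL1, CXCL2, CXCL3 and CXCL5 act mainly through the receptor CXCR2 on neutrophils, and macrophages make several of them quickly when interleukin-1, TNF or Toll-like receptors activate the transcription factor NF-κB. Pf4 encodes platelet factor 4 (CXCL4), and Ppbp encodes the precursor of CXCL7, another ligand of CXCR2. Both proteins are stored in platelet granules, and their transcripts are also found in some monocytes and macrophages. CXCL16 differs from the others in being made as a membrane protein that binds oxidized lipid and is shed by the proteases ADAM10 and ADAM17, and its receptor is CXCR6.

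RNA-seq was carried out on TAMs from 8 mice, with 1 library per mouse. All mice were male C57BL/6, engrafted when 8 to 10 weeks old, that carried subcutaneous tumors of the mouse melanoma line B16F10, received their doses on days 6 and 12 of tumor growth, and had CD45+F4/80+CD11b+Gr-1- cells sorted from the tumor on day 18. Of the mice, 2 received DMSO, the vehicle, 4 received thiostrepton, a thiopeptide antibiotic, by I.P., and 2 received thiostrepton at 20 mg/kg by S.C. The I.P. dose of these 4 mice and the route of the DMSO mice are not given in the sources used here. The I.P. doses that the paper names for tumor growth were higher than the S.C. dose. S.C. and I.P. mice may therefore differ in dose as well as route, and these cannot be told apart. The sort took macrophages by surface markers and was gated against Gr-1, a surface marker of neutrophils and some monocytes. It cannot tell whether a transcript came from most macrophages or from a few cells, and in RNA from a sorted population fewer cells of a type and less RNA per cell cannot be told apart.

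Counts on genes totalled 14127506 to 17577466 per mouse, and 3 counts, taken as the detection floor, were 0.169 to 0.218 CPM, counts scaled to a common library size, which covers counting error only. The scaling between mice used the TMM method, and means are given with the SD over mice. All 13 macrophage markers had counts in every mouse, with a sum of 34900.5 to 73272 CPM. Both S.C. libraries had more abundant genes without a count (0.525% and 0.364%) than the other 6, in which the share did not exceed 0.129%. Sample titles carry running numbers whose meaning is not given. I.P. mouse 1 and both S.C. mice have the 3 lowest of the 8 numbers. A gene that is high in these 3 mice alone follows title order. Such a gene also differs by label between S.C. and DMSO mice, but within the I.P. label it differs between mouse 1 and the other mice. Whether the order of the numbers has a part in such a pattern was not tested. Between S.C. and DMSO mice, title order and treatment cannot be told apart.

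Of the 7 genes, 6 lie in 1 cluster on the plus strand of mouse chromosome 5 (GRCm38, GENCODE vM21), and the order along the chromosome is Cxcl5, Ppbp, Pf4, Cxcl3, Cxcl1, Cxcl2. Cxcl5 spans chr5:90759360-90761624, Ppbp chr5:90768518-90770063, Pf4 chr5:90772435-90773383 and Cxcl3 chr5:90786103-90789600. Cxcl1, at chr5:90891241-90893115, begins 101640 bp after Cxcl3 ends, and Cxcl2, at chr5:90903871-90905938, begins 10755 bp after Cxcl1 ends. Cxcl16 lies elsewhere, at chr11:70453983-70459984 on the minus strand, and its first 552 bp, at the 5′ end, overlap exons of Zmynd15 on the opposite strand. Whether the counting used strand is not given, so in that overlap reads from both genes cannot be told apart.

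The promoters of the inducible neutrophil chemokines Cxcl1, Cxcl2 and Cxcl3 are shown beside that of Ppbp, because Cxcl1 and Cxcl2 took a different course from Ppbp in the same mice. Cxcl3 did not follow Cxcl1 and Cxcl2 closely (Pearson r of 0.66 and 0.62 over the 8 mice, against 0.77 with Ppbp). RefSeq promoter windows (GRCm38.p6) were matched for 5 of the 7 genes, and those of Cxcl5 and Cxcl16 were not analysed here. Each stretch is the 120 bases before the RefSeq gene start on the plus strand, 5′ to 3′. The RefSeq start lies 4 bases downstream of the GENCODE start given above for Cxcl1, 28 bases downstream for Cxcl2 and 2 bases upstream for Cxcl3, and is the same for Ppbp. Capitals mark the longest run of letters that the stretches of Cxcl1, Cxcl2 and Cxcl3 share, GGGAATTTCCC, which has the form of a κB site, the kind of sequence NF-κB binds.
Cxcl1, chr5:90891125-90891244: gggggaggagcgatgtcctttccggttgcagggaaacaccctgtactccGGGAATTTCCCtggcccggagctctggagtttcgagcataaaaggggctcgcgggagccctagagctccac
Cxcl2, chr5:90903779-90903898: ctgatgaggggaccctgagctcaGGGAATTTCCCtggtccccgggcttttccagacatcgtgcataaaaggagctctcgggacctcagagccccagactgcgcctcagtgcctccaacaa
Cxcl3, chr5:90785981-90786100: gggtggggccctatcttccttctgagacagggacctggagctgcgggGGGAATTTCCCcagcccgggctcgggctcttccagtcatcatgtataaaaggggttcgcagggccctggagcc
Ppbp, chr5:90768398-90768517: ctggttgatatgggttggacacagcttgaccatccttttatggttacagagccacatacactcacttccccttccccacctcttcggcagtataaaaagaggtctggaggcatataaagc

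These κB-like letters begin 71 bases before the RefSeq start of Cxcl1, 97 before Cxcl2 and 73 before Cxcl3. They were searched on both strands of the 300-base windows, and were not found in those of Ppbp and Pf4. Among all promoter windows, 14 of 32851 (0.0426%) hold these letters. The TATA-like letters ATAAAAG are far more common (1779 windows, 5.42%), and lie downstream of the κB letters in Cxcl1, Cxcl2 and Cxcl3. In Ppbp these exact letters occur only on the opposite strand, 86 to 80 bases before its start. Nearer the start, on the same strand, the Ppbp stretch reads tataaaaag, a like run that the exact search does not match. Ppbp is therefore not shown to lack TATA-like letters there. The κB-like letters were taken from Cxcl1, Cxcl2 and Cxcl3, so their presence in these genes follows from that choice. Such matches describe the sequence and not the use of a site.

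**Figure D1:**
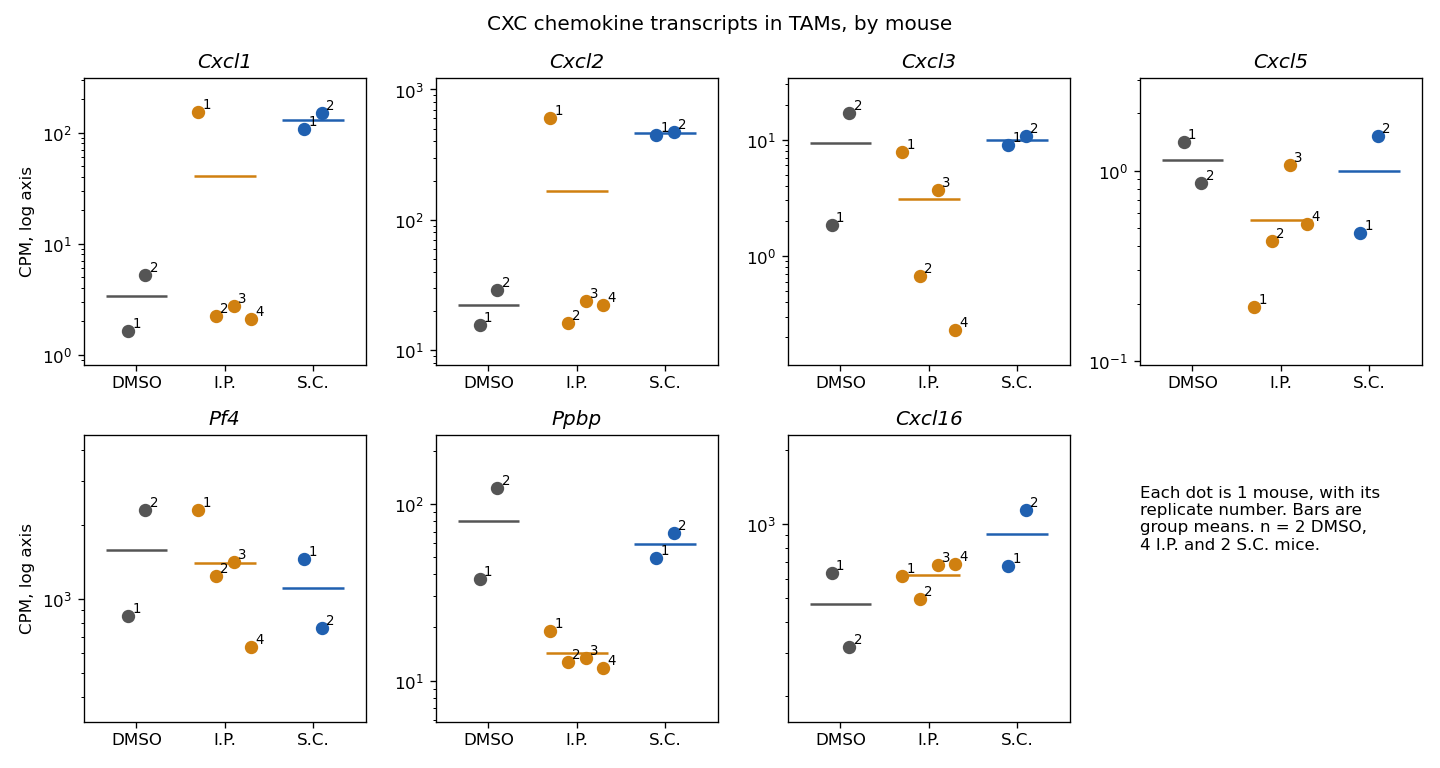
CPM (log axis) of the 7 chemokine genes in each of the 8 mice, 1 numbered point per mouse, by treatment group, with bars at the group means. Cxcl1 and Cxcl2 are high in I.P. mouse 1 and both S.C. mice, whereas Ppbp is lowest in the 4 I.P. mice.

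Cxcl1 encodes the neutrophil chemoattractant also called KC. Cxcl1 was at 1.63 and 5.17 CPM in DMSO mice 1 and 2, at 154, 2.25, 2.77 and 2.1 CPM in I.P. mice 1 to 4, and at 108 and 150 CPM in S.C. mice 1 and 2. The S.C. mice lay far above both DMSO mice, and I.P. mouse 1 lay above the S.C. mice, whereas I.P. mice 2 to 4 lay between the DMSO mice. The group means were 3.4 ± 2.5 CPM (SD, n = 2) for DMSO, 40.2 ± 75.6 (n = 4) for I.P. and 129 ± 29.5 (n = 2) for S.C. The SD of the I.P. group exceeded its mean, since a single mouse held nearly all of its Cxcl1. I.P. mouse 1 had 2411 counts of Cxcl1, against 36 to 49 in I.P. mice 2 to 4, so counting error was small beside the gap.

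Cxcl2 encodes MIP-2, the other main neutrophil attractant made by mouse macrophages. Cxcl2 was at 15.5 and 29.1 CPM in the DMSO mice, at 608, 16.2, 24 and 22.2 CPM in I.P. mice 1 to 4, and at 449.5 and 473 CPM in the S.C. mice. The pattern was that of Cxcl1, with I.P. mouse 1 highest, the S.C. mice next, and I.P. mice 2 to 4 between the DMSO mice. I.P. mouse 1 was 27.3-fold above the DMSO mean for Cxcl2 and 45.2-fold for Cxcl1, while the mean of I.P. mice 2 to 4 was 0.932 and 0.698 of it. These are folds of CPM without a test, since that split of the I.P. mice was made with the values known.

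S.C. mice were compared with DMSO mice to ask which transcripts differ in TAMs after treatment beside the tumor. A gene is called here where edgeR's quasi-likelihood test gave an unadjusted P under 0.05 with a fold change of 2 or more in either direction, the kind of criterion used in the study. Cxcl1 rose by 5.21 on the log2 scale (SE 0.67) and Cxcl2 by 4.34 (SE 0.44), with both S.C. mice above both DMSO mice. Of the 7 chemokines, 2 were called higher and none lower, when of the 11680 genes tested 2.29% were called higher, 2.77% lower and 5.06% in all. No gene of the 11680 had an adjusted p under 0.05 in this test, and 632 (5.41%) had an unadjusted P under 0.05, while 107 passed the adjusted threshold by DESeq2 and 179 by the likelihood ratio test. The adjusted p was 0.533 for Cxcl1 and 0.362 for Cxcl2, and over 13 alternatives it ran from 2.76e-15 to 0.698 and from 9.41e-22 to 0.57, the lowest by DESeq2. Both genes were called under all 13, and in 6 of them both had an adjusted p under 0.05.

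I.P. mice were compared with DMSO mice with all 4 mice in the fit. Cxcl1 had a log2 change of 3.52 (SE 2.01) and Cxcl2 of 2.88 (SE 1.6), and neither was called. Without I.P. mouse 1 the changes were -0.53 and -0.11. The direction of both therefore rested on that mouse. S.C. mice against I.P. mice gave a log2 difference of 1.69 (SE 1.56) for Cxcl1 and 1.46 (SE 1.33) for Cxcl2, neither called. Without I.P. mouse 1 these were 5.76 and 4.47, and both were called.

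**Figure D2:**
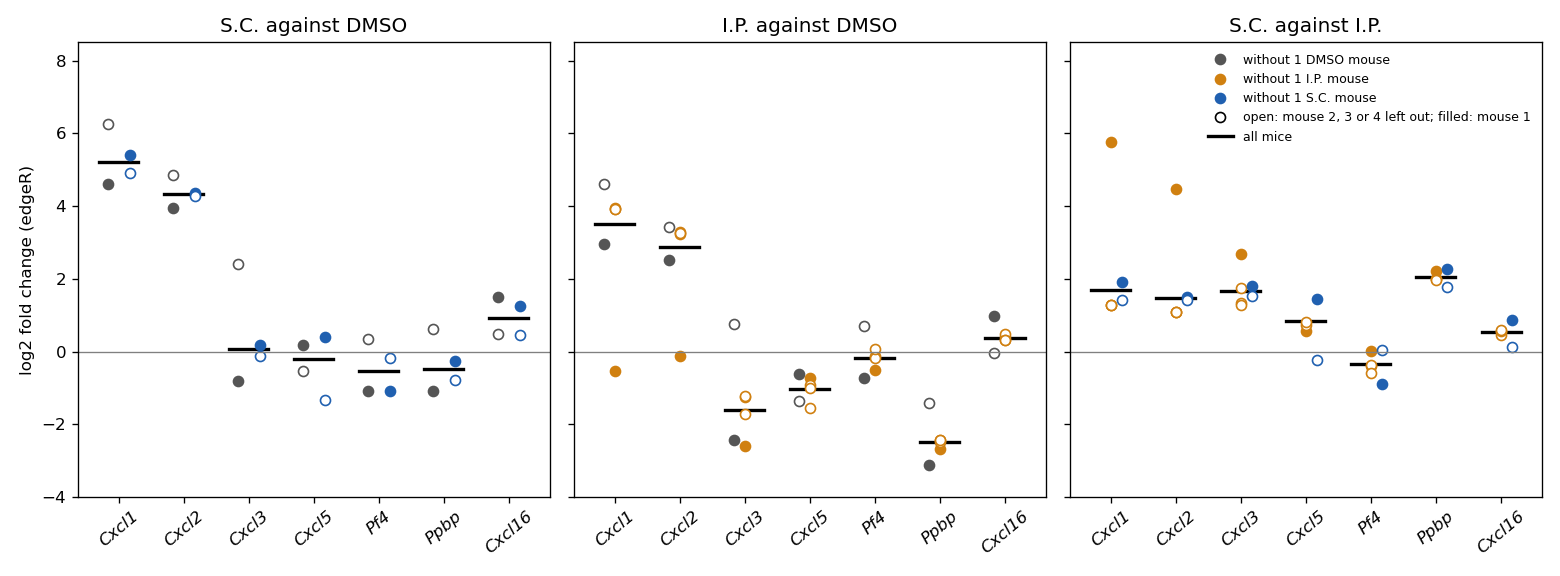
Log2 fold change of each chemokine in the 3 comparisons with all mice (black bar) and with each mouse left out in turn (dots, coloured by the group of the mouse left out, filled where it is mouse 1). For Cxcl1 and Cxcl2, leaving out I.P. mouse 1 brings I.P. against DMSO to -0.53 and -0.11 and raises S.C. against I.P. to 5.76 and 4.47.

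Cxcl1 and Cxcl2 went together over the 8 mice, with a Pearson r of 0.996 between their log2 CPM. Mice share libraries and depth between genes, so such correlations are descriptions. Among 9327 genes, those most like Cxcl1 after Cxcl2 were Fam104a (r = 0.976) and Dusp5 (r = 0.974), a phosphatase that acts on ERK. Those most like Cxcl2 after Cxcl1 were Trib1 (r = 0.98), a pseudokinase, and Nfkbia (r = 0.977), which encodes the NF-κB inhibitor IκBα. Nfkbia was at 101 and 109 CPM in the DMSO mice, 975, 85.3, 158 and 151 CPM in I.P. mice 1 to 4, and 549 and 613 CPM in the S.C. mice. Cxcl2 had 3.96 counts per count of Cxcl1 in I.P. mouse 1, with 4.15 and 3.16 for the S.C. mice, against 5.63 to 10.6 in the other 5 mice. In the mice where both were high, Cxcl1 thus stood closer to Cxcl2 than elsewhere, and this ratio does not depend on scaling between mice.

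Cxcl3 encodes another CXCR2 ligand and shares sequence with Cxcl2. Of the 50-base words in the transcripts of Cxcl2, 5.84% also occur in Cxcl3, so reads there could be assigned to either gene. Cxcl3 was at 1.83 and 16.8 CPM in the DMSO mice, at 7.77, 0.669, 3.72 and 0.233 CPM in I.P. mice 1 to 4, and at 9.01 and 10.8 CPM in the S.C. mice. The DMSO mice differed 9.19-fold from each other, and the values of all treated mice but 2, both I.P. mice, lay between theirs. Within the I.P. group, mouse 1 was highest here too, 5.04-fold above the mean of I.P. mice 2 to 4, yet it stood at 0.833 of the DMSO mean.

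The log2 change of Cxcl3 was 0.06 (SE 1.03) in S.C. and -1.61 (SE 1.16) in I.P. mice against DMSO, and neither was called. Both S.C. mice were above all 4 I.P. mice, with a log2 difference of 1.67 (SE 1.11) that was not called. Without I.P. mouse 1 it was 2.67 and was called. Without DMSO mouse 2, the mouse with the high value, the I.P. change against DMSO was 0.75, and without I.P. mouse 1 it was -2.6 and was called. Cxcl3 carries the same κB-like letters as Cxcl1 and Cxcl2, but the ratio of Cxcl2 to Cxcl3 varied widely between mice. Counts of Cxcl2 per count of Cxcl3 were 8.48 and 1.73 for DMSO mice 1 and 2. They were 78.3, 24.3, 6.44 and 95 for I.P. mice 1 to 4, then 49.9 and 43.9 for S.C. mice 1 and 2. The highest ratio, in I.P. mouse 4, rested on 4 counts of Cxcl3, with Cxcl2 at only 22.2 CPM. A high ratio was thus not limited to the mice with high Cxcl2.

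Cxcl5 encodes LIX, a CXCR2 ligand best known from epithelial and stromal cells. Cxcl5 counts were 21 and 15 for the DMSO mice, 3, 7, 19 and 9 counts in I.P. mice 1 to 4, and 7 and 21 counts in the S.C. mice. I.P. mouse 1, with the highest Cxcl1 and Cxcl2, was at the 3-count floor for Cxcl5. The log2 changes against DMSO were -0.21 (SE 1.16) in S.C. and -1.03 (SE 0.84) in I.P. mice, and a difference was not detectable at this depth.

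Ppbp, the CXCL7 precursor gene, was at 37.9 and 123 CPM in the DMSO mice, at 19.1, 12.8, 13.5 and 11.7 CPM in I.P. mice 1 to 4, and at 49.4 and 69 CPM in the S.C. mice. All 4 I.P. mice lay below all other mice, and the S.C. mice lay between the DMSO mice. I.P. mouse 1 was the highest of its group but closer to I.P. mice 2 to 4 than to any mouse of the other groups. The group means were 80.3 ± 59.9 CPM (SD, n = 2) for DMSO, 14.3 ± 3.3 (n = 4) for I.P. and 59.2 ± 13.9 (n = 2) for S.C. The lowest count of Ppbp was 201, far above the floor.

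In I.P. against DMSO mice Ppbp fell by 2.5 on the log2 scale (SE 0.42), with 4 of 4 I.P. mice below both DMSO mice. It was the 1 chemokine of 7 called, when 0.468% of the 12174 genes tested were called lower, 1.53% higher and 2% in all. No gene had an adjusted p under 0.05 by edgeR's quasi-likelihood test, and 418 (3.43%) had an unadjusted P under 0.05, while 19 passed by DESeq2 and 10 by the likelihood ratio test. The adjusted p of Ppbp was 0.98, and over 15 alternatives it ran from 0.000138 to 1. The gene was called under all 15, with log2 changes from -3.11 to -1.41, and in 2 of them, the likelihood ratio test and DESeq2, the adjusted p was under 0.05. The smallest change, -1.41, was seen without DMSO mouse 2.

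Ppbp was 2.05 higher on the log2 scale in S.C. than in I.P. mice (SE 0.32), with 2 of 2 S.C. mice above all 4 I.P. mice. It was again the 1 chemokine of 7 called, when 2.41% of the 12206 genes tested were called higher in S.C. mice, 4.64% lower and 7.05% in all. No gene had an adjusted p under 0.05 by edgeR's quasi-likelihood test, and 1049 (8.59%) had an unadjusted P under 0.05, while 234 passed by DESeq2 and 265 by the likelihood ratio test. The adjusted p of Ppbp was 0.205, and ran from 5.11e-05 to 1 over 15 alternatives, all of which called it, with log2 differences from 1.78 to 2.27. Against DMSO, the S.C. mice showed a log2 change of -0.47 (SE 0.6), which was not called. Both comparisons with I.P. mice share the same 4 I.P. mice and are not separate evidence.

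Pf4, the gene next to Ppbp in the cluster, was the most abundant of the 7 chemokines. It was at 850.1 and 2291 CPM in the DMSO mice, at 2299, 1239, 1414 and 635 CPM in I.P. mice 1 to 4, and at 1453 and 758 CPM in the S.C. mice. The groups overlapped, and each was widely spread. The log2 change of Pf4 was -0.54 (SE 0.57) in S.C. and -0.18 (SE 0.51) in I.P. mice against DMSO, and -0.34 (SE 0.48) in S.C. against I.P. mice, and none of these was called. Without DMSO mouse 1 the S.C. change against DMSO was -1.09 and was called. Pf4 had 120, 96.6, 105 and 54.1 counts per count of Ppbp in I.P. mice 1 to 4, against 22.4 and 18.7 in DMSO mice 1 and 2, then 29.4 and 11 in S.C. mice 1 and 2. The ratio of these neighbours was thus higher in every I.P. mouse than in any other mouse. Pf4 and Ppbp had a Pearson r of 0.23 over the 8 mice, against 0.77 for Cxcl3 and Ppbp.

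The genes most like Pf4 over the 8 mice were Cox6c (r = 0.98), 1810022K09Rik (r = 0.976) and Rps21 (r = 0.964), of which Cox6c and Rps21 encode a respiratory chain and a ribosomal subunit. The gene most like Ppbp was Ccr2 (r = 0.899), the receptor that draws monocytes out of the blood, followed by Ubash3b (r = 0.896) and B3gnt7 (r = 0.885). Ccr2 was at 59.9 and 79.2 CPM in the DMSO mice, at 12.7, 7.3, 13.1 and 20.1 CPM in I.P. mice 1 to 4, and at 60.7 and 76.7 CPM in the S.C. mice. As for Ppbp, every I.P. mouse lay below every other mouse. Ccr2 fell by 2.39 on the log2 scale in I.P. against DMSO mice (SE 0.36) and was called, with an edgeR adjusted p of 0.751.

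**Figure D3:**
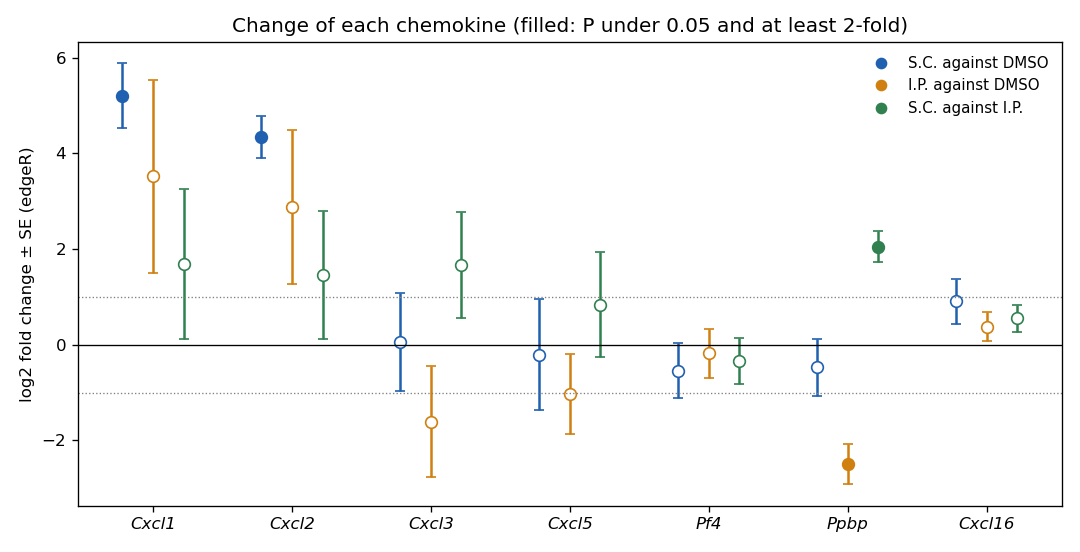
Log2 fold change with its SE for each of the 7 chemokines in the 3 comparisons, from edgeR fits on all genes tested, with filled dots where the gene was called. Cxcl1 (5.21) and Cxcl2 (4.34) are called in S.C. against DMSO, and Ppbp is called in I.P. against DMSO (-2.5) and in S.C. against I.P. (2.05).

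Cxcl16 was at 633 and 316 CPM in the DMSO mice, at 617, 495, 683 and 690.3 CPM in I.P. mice 1 to 4, and at 676 and 1142 CPM in the S.C. mice. Both S.C. mice were above both DMSO mice, while the I.P. mice spread around DMSO mouse 1. The log2 change was 0.91 (SE 0.47) in S.C. and 0.38 (SE 0.31) in I.P. mice against DMSO, and 0.55 (SE 0.28) in S.C. against I.P. mice, and none was called. Without DMSO mouse 1 the S.C. change was 1.49, and without S.C. mouse 1 it was 1.24, and in both cases Cxcl16 was called. I.P. mouse 1 was at 0.991 of the mean of I.P. mice 2 to 4, so the mouse that stood apart for Cxcl1 and Cxcl2 did not do so for Cxcl16. The genes most like Cxcl16 were Stx11 (r = 0.962), Slamf7 (r = 0.952) and Zmynd15 (r = 0.949), the last of which overlaps it. Zmynd15 was at 9.53 to 36.6 CPM over the 8 mice, far below Cxcl16.

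Per kb of exon, DMSO mice had 2178 CPM of Pf4, 157 of Cxcl16, 74.1 of Ppbp, 10.8 of Cxcl2, 2.67 of Cxcl3, 1.81 of Cxcl1 and 0.613 of Cxcl5. In this order of levels the ranges of the DMSO mice overlapped between Cxcl16 and Ppbp and between Cxcl3 and Cxcl1, and were apart between all other neighbours. In S.C. mice Cxcl2 reached 223 CPM per kb and Cxcl1 68.9, beside 301 for Cxcl16 and 54.7 for Ppbp. In I.P. mouse 1 Cxcl2 was at 294 CPM per kb, above Cxcl16 at 204, whereas in I.P. mice 2 to 4 it was at 7.85 to 11.6.

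The groups did not overlap for 3 of the 7 chemokines in S.C. against DMSO mice (Cxcl1, Cxcl2, Cxcl16), when 34.3% of all genes tested were apart. They did not overlap for 1 (Ppbp) in I.P. against DMSO mice, when 14.1% were, and for 2 (Cxcl3, Ppbp) in S.C. against I.P. mice, when 18.5% were. The median log2 change of the 7 was 0.06, -0.18 and 1.46 in these comparisons, against 0.02 over all genes in each. The DMSO mice themselves were 1.87 to 9.19-fold apart for 5 of the 7, all higher in DMSO mouse 2, and Cxcl5 and Cxcl16 were lower there.

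The receptors and shedding enzymes of these ligands were described as a list of 10 genes. None of the 5 or 6 tested was called in any comparison. Cxcr2, the receptor of the neutrophil chemokines, was at 63.6 and 96.7 CPM in the DMSO mice, 77.4, 61.4, 53.3 and 22.3 CPM in I.P. mice 1 to 4, and 171 and 65.3 CPM in the S.C. mice. It did not follow Cxcl1 and Cxcl2, since I.P. mouse 1 and S.C. mouse 2 lay between the DMSO mice. Cxcr6, the receptor of CXCL16, gave 50 and 4 counts for the DMSO mice, 0, 4, 32 and 0 in I.P. mice 1 to 4, and none in the S.C. mice. The Cxcl16-shedding protease genes Adam10 and Adam17 were lowest in I.P. mouse 1 (48.6 and 47.3 CPM) and S.C. mouse 1 (43 and 54.6 CPM) and highest in S.C. mouse 2 (183 and 330.4 CPM).

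Other CXC ligands numbered 7 in the counts, of which 4 were tested and none was called in any comparison, with median log2 changes of 0.33, -0.21 and 0.49. Cxcl10, a ligand of CXCR3 induced by interferon, was at 69.9 to 100.3 CPM in the DMSO mice, 30.8 to 203 CPM in the I.P. mice and 86.9 to 124 CPM in the S.C. mice. Cxcl9, another interferon-induced ligand, had a range of 6.48 to 181 CPM within the I.P. group alone. The highest I.P. mouse for both was mouse 3, not mouse 1.

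Genes known to induce the neutrophil chemokines in macrophages were a list of 22. In S.C. against DMSO mice, 7 of 20 tested were called higher and none lower, with a list median of 0.49. Log2 changes were positive for 15 of the 20 and negative for 5. The most negative was that of Tlr4 (-1.3, SE 0.85), which was not called. Tlr4 was at 127 and 101 CPM in the DMSO mice and at 11.9 and 82.1 CPM in the S.C. mice. For I.P. mice 1 to 4 its values were 20.1, 109, 104 and 70.5 CPM. Il1b, an inflammatory cytokine gene of this list, rose by 5.29 on the log2 scale (SE 0.43). The NF-κB cofactor gene Nfkbiz rose by 3.19 (SE 0.62) and Tnf by 1.84 (SE 0.37). Il1b was at 6.92 and 8.96 CPM in the DMSO mice, 228, 5.05, 7.73 and 0.992 CPM in I.P. mice 1 to 4, and 252 and 381 CPM in the S.C. mice. It was high in the same 3 mice as Cxcl1 and Cxcl2. In I.P. against DMSO mice 1 of 21 was called higher, Il1a, by 1.13 (SE 0.42), and in S.C. against I.P. mice 1 of 21 was, the LPS co-receptor gene Cd14, by 2.08 (SE 0.68).

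Regulators of chemokine mRNA decay and NF-κB feedback were a list of 10, all tested, and 3 were called higher in S.C. against DMSO mice, none in I.P. mice and 2 in S.C. against I.P. mice. Zfp36, whose protein binds AU-rich 3′ ends and speeds decay of Cxcl1 and Cxcl2 mRNA, rose by 1.98 (SE 0.3) on the log2 scale in S.C. against DMSO mice, and Nfkbia by 2.45 (SE 0.3). Zfp36 was at 154 and 131 CPM in the DMSO mice, 463, 115, 122 and 136 CPM in I.P. mice 1 to 4, and 555 and 587 CPM in the S.C. mice. Genes with the κB-like letters in their promoter windows were 14, of which 8 were tested. In S.C. against DMSO mice Cxcl1 and Cxcl2 were the only ones of the 8 that were called, and the 5 that are not among the 7 chemokines had a median log2 change of 0.49. None of the 8 was called in the other comparisons.

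Marker lists of other cell types moved with some of these results, and their part in them was not tested. Neutrophil markers had a summed level of 187 and 199 CPM in the DMSO mice, 195, 148, 151 and 135 CPM in I.P. mice 1 to 4, and 297 and 555 CPM in the S.C. mice. In S.C. against DMSO mice 6 of 13 tested were called higher and none lower, led by granule genes such as Ngp, whose counts were 11 and 2 in DMSO mice 1 and 2, then 66 and 828 in S.C. mice 1 and 2. In I.P. mouse 1 the sum lay between those of the DMSO mice, and Cxcr2 (77.4 CPM), Csf3r (48 CPM) and Mmp8 (24.2 CPM) made up most of it. In the same mouse 9 of 14 markers were above both DMSO mice, among them S100a8 (21.2 CPM, against 2.31 and 6.14) and Lcn2 (6.5 CPM, against 0.271 and 0.574), though Camp and Elane exceeded DMSO mouse 1 by little (0.382 against 0.339 CPM for each). In I.P. mice 2 to 4 between 2 and 4 of 14 were above both DMSO mice, and in S.C. mice 1 and 2, 11 and 12 were. Most neutrophil markers were thus above both DMSO mice in the same 3 mice in which Cxcl1 and Cxcl2 were high. In I.P. mouse 1 some of them had few counts, such as Camp and Elane with 6 each. The share of all genes above both DMSO mice in a single mouse is not given here, so these counts are descriptions. In I.P. against DMSO mice 1 of 11 was called higher, Lcn2, and in S.C. against I.P. mice 7 of 13 were called higher.

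Platelet and megakaryocyte markers were near the floor. Of 14, between 1 and 9 were at 0 in each mouse, and Gp1bb, Gp5, Gp6, Gp9 and Tubb1 had at most 5 counts in any mouse, whereas Pf4 was at 635 CPM or more in each. Their sum was 6.38 and 6.83 CPM in the DMSO mice, 17.5, 7.78, 8.18 and 10.3 CPM in I.P. mice 1 to 4, and 20.2 and 28 CPM in the S.C. mice. All 6 treated mice had a higher sum than both DMSO mice. Clec1b was the 1 marker called, higher in S.C. mice in both of their comparisons.

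Of the monocyte markers, Ccr2 moved with Ppbp, and the list as a whole did not. The sums were 1169.5 and 2278 CPM in the DMSO mice, 668 to 888 CPM in the I.P. mice and 483 and 879.9 CPM in the S.C. mice. In I.P. against DMSO mice 2 of 8 were called lower, Ccr2 and F13a1, and none higher. The log2 changes of the 8 were positive for 4 and negative for 4, with a median of -0.11. F13a1, the coagulation factor XIII gene that makes up most of the sum, fell by 1.26 (SE 0.33) on the log2 scale in I.P. mice and by 1.71 (SE 0.51) in S.C. mice, in which Ppbp was not called. Ccr2 was 2.37 higher (SE 0.4) in S.C. than in I.P. mice, and Ly6c2 was called higher in S.C. against DMSO mice.

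Lymphocyte markers had sums of 51.5 and 36.5 CPM in the S.C. mice and 3.12 to 20.4 CPM in the others, and 3 of 7 were called higher in S.C. against DMSO mice, none of 4 in I.P. mice and 4 of 7 in S.C. against I.P. mice. Melanoma markers had sums of 2986 and 700.2 CPM in the S.C. mice and 461 to 1671 CPM in the others, and 3 of 7 were called higher in S.C. against DMSO mice. Stromal and endothelial markers summed to 1.41 to 9.39 CPM and none was called. Of the 13 macrophage markers, Mrc1 was called lower in S.C. and Apoe higher in I.P. mice against DMSO.

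**Figure D4:**
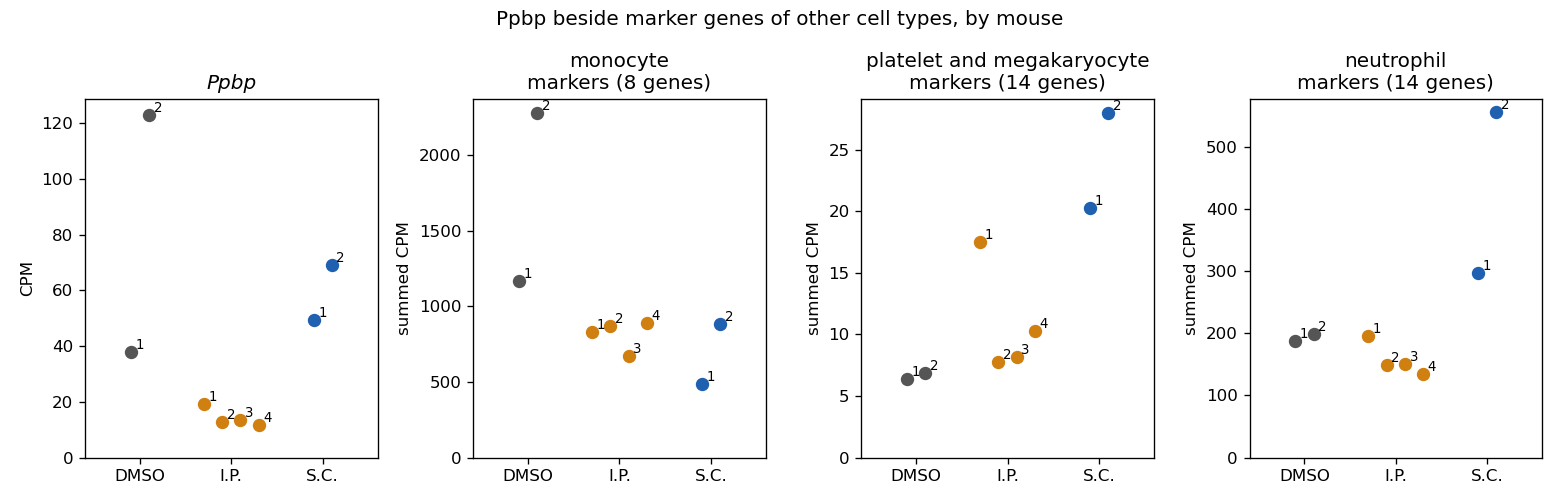
CPM of Ppbp and summed CPM of the monocyte (8), platelet and megakaryocyte (14) and neutrophil (14) markers in each mouse (linear axes from 0), 1 numbered point per mouse by treatment group. Ppbp (11.7 to 19.1 CPM) is lower in the 4 I.P. mice than in all others. The platelet sums of the I.P. mice run from 7.78 to 17.5 CPM.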

How the data were processed

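RNA-seq counts of sorted TAMs from 8 mice were used, grouped by treatment as labelled (the S.C. mice carry the label IS). The authors deposited whole-number counts per gene without normalization, from reads aligned to mm10. The paper names bowtie2 and RSEM for its RNA-seq, whereas the submitters' processing notes name TopHat2 and edgeR. Cultures and other experiments of the study were not analysed here.

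The analysis used edgeR 4.0.16 in R 4.3.3. Low genes were removed by filterByExpr (at least 10 counts, and 15 in total), and TMM scaling was applied. The groups were fitted 2 at a time, with a two-sided quasi-likelihood test and Benjamini-Hochberg adjustment over all genes tested. An SE is the log2 change over the square root of F. Alternatives used other filters, RLE or library-size scaling, the likelihood ratio test, DESeq2 1.42.0, 1 fit of all groups, a block for mouse numbers and each mouse left out. Per-mouse CPM were scaled over all 8 mice, and log2 CPM used a prior count of 2. The procedure was tested on simulated data.

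The 7 chemokines and all lists were chosen with earlier results of these data known. From lists, the text takes called genes and the 3 genes with the smallest P in S.C. against DMSO mice, with defining markers where a list's range needs them. Genes of like pattern are the 3 with the highest Pearson r where the mean was 5 CPM or more. Cxcr2, Cxcr6, Adam10, Adam17, Cxcl9 and Cxcl10 were named as receptors, shedding enzymes and ligands. Positions come from GENCODE vM21, where 93.0% of symbols matched.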

Additional observations from a re-analysis of the deposited data

Results flagged for a closer look

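In the I.P. group, Cxcl1 at 154 CPM and Cxcl2 at 608 CPM in mouse 1 stood far from the other 3 mice. The gap to the nearest mouse was 0.996 and 0.987 of the group's whole range, which is above Dixon's 95% critical value for 4 samples. For Ppbp, the same mouse had a gap of 0.762, which is below it. Chance passes it in about 1 in 20 groups of normally distributed values, and 7 genes were examined. Mouse 1 was also set apart with the values known, so these ratios describe the gap and are not a test.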

How the results depend on the processing

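Over the alternatives, 266 values of single chemokines kept their direction and side of the threshold, 11 newly passed it and 18 changed sign, while 71 counts of calls stayed within 1.5 times and 15 did not. The causes of the changes below were not tested. With library size only, the median of all genes shifted by -0.15 (log2) in S.C. against DMSO and by -0.11 in S.C. against I.P. mice, Cxcl3 in S.C. against DMSO read -0.11, and 31.4% of its calls were higher, against 45.3% with TMM. With 1 fit of all groups 160 genes were called in I.P. against DMSO mice, against 243. The likelihood ratio test called 3 chemokines there (Cxcl1 and Cxcl2 added), as did I.P. mice 1 and 2 alone, chosen after seeing the data, with Pf4 at 0.16. DESeq2 gave no p for Cxcl1 and Cxcl2 in both comparisons with I.P. mice. I.P. mice 1 and 2 alone gave 395 genes in S.C. against I.P. mice, against 860.

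Same-numbered mice did not deviate together (correlations of -0.187 to 0.169), which gave no sign that the numbers pair the mice. Groups this small cannot exclude such pairing. With a replicate block 2, 1 and 1 chemokines were called in S.C. against DMSO, I.P. against DMSO and S.C. against I.P. mice, as without it, Pf4 in I.P. against DMSO read 0.26, and 391 genes were called in S.C. against I.P. mice. With the numbers crossed, 2 chemokines were called in S.C. against DMSO mice.

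Leaving out each mouse gave 2 to 4 chemokines and 113 to 3432 genes called in S.C. against DMSO (113 without DMSO mouse 2, 206 without DMSO mouse 1, 2989 and 3432 without S.C. mice 1 and 2), 1 to 2 and 116 to 361 in I.P. against DMSO (116 without DMSO mouse 1), and 1 to 4 and 632 to 2115 in S.C. against I.P. mice (2003 and 2115 without S.C. mice 1 and 2). A group then left with 1 mouse is assumed to vary like the other. In S.C. against DMSO, log2 changes ran from -0.8 to 2.4 for Cxcl3, -1.32 to 0.4 for Cxcl5, -1.09 to 0.34 for Pf4 and -1.08 to 0.61 for Ppbp. In I.P. against DMSO they ran from -0.53 to 4.61 for Cxcl1, -0.11 to 3.43 for Cxcl2, -2.6 to 0.75 for Cxcl3, -0.72 to 0.71 for Pf4 and -0.03 to 0.97 for Cxcl16. In S.C. against I.P. they ran from -0.24 to 1.45 for Cxcl5 and -0.88 to 0.05 for Pf4. Groups of 2 mice and 3 to 21 counts per mouse limit what Cxcl5 can show.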
